A study of Mus musculus with 2 samples.

Results

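AP-1 is the dimeric transcription factor built from Jun and Fos family proteins, and the 10 genes described here are 6 of its subunits (Jun, Junb, Jund, Fos, Fosb and Fosl2), the related factor Atf3, and 3 immediate early genes that respond to the same stimuli (Egr1, Ier2 and Nr4a1). They were taken by symbol from 27998 genes counted in both libraries, and all 10 were found. The set was chosen by gene family and selected on measured values as well, since the levels of Jun and of early response genes in this contrast were known when it was drawn up, so the levels below are a description and carry no test. 1 library was made from Trmt6fl/fl mice, called WT, and 1 from Trmt6fl/fl, MX1-cre mice, called cKO, both of bone marrow LSK cells (lineage-negative, Sca-1+ and c-Kit+, where haematopoietic stem and progenitor cells are found) from 3-month-old animals. Trmt6 encodes the non-catalytic subunit of the enzyme that writes m1A on tRNA. Mx1-Cre is a recombinase under an interferon-inducible promoter, active in blood cells and in other tissues that respond to interferon. The labels give Cre to the cKO animals only, while the methods of the study describe Mx1-Cre and pIpC (a double-stranded RNA that induces interferon) in both genotypes, on C57BL/6. How many animals went into each library is not given in the sources used here.

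Genotype, library and, if the labels are right, the recombinase go together and cannot be told apart, and with 1 library per genotype no difference has a replicate check. After filtering, 8146 WT cells with a median of 4164.5 UMIs and 8478 cKO cells with a median of 10059 UMIs were kept, so the cKO library was the deeper. Intervals in brackets are 95% intervals and cover counting error only. Trmt6 stood at 63.7 CPM (UMIs of a gene per 1000000 UMIs) in WT cells and 50.2 CPM in cKO cells, a log2 ratio of -0.34. UMIs counted from the 3' end do not show whether a transcript held the floxed exon. Kit was detected at 64.0 CPM in WT cells and 21.7 CPM in cKO cells. Ly6a, which encodes Sca-1, was detected at 35.1 CPM in WT cells and 145 CPM in cKO cells. Markers of mature cells also differed: the 10 neutrophil markers summed to 5861 CPM in WT cells and 8.03 CPM in cKO cells, and the 6 plasma cell markers to 108 and 669 CPM. 24 cell barcodes occurred in both libraries.

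Immediate early genes are transcribed within minutes of a stimulus from promoters that are already loaded with factors, without the need for new protein, and their mRNAs are short-lived. Growth factors, cytokines and stress reach them through MAP kinases, which act on serum response factor with its Elk partners, on CREB and ATF factors, and on Jun itself. In haematopoietic cells AP-1 and Egr1 are known from studies of stem cell quiescence, myeloid differentiation and leukaemia. The same genes are also known to be induced when tissue is dissociated and cells are sorted.

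The intron-poor build of several of these genes can be read from their annotation. Jun, Junb, Jund and Ier2 have 1 exon in the longest coding transcript of GENCODE M21, so 40% of the members against 2.30% of 8954 measured genes have no intron. The other members have 2 (Egr1), 4 (Fos, Fosb, Fosl2 and Atf3) or 8 exons (Nr4a1). Per 1000 bases of 3' UTR, the median member held 2.20 copies of ATTTA, the core of AU-rich elements that mark unstable mRNAs, against 1.31 over all measured genes. The longer element TTATTTATT was found in the 3' UTR of Fos and Fosl2, 20% of the members, and in 7.08% of the measured genes. Both sites are shown because Fos and Fosl2 share the element while their levels differed very unequally between the libraries, as given below, with TTATTTATT in capitals and coordinates on GRCm38. That of Fos lies at chr12:85477104-85477130 (plus strand) and that of Fosl2 at chr5:32156872-32156898 (plus strand).
Fos: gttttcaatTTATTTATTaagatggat
Fosl2: tttattttaTTATTTATTttaaatgtt

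Promoters were available for 8 members in the RefSeq table (GRCm38.p6), and the 250 bases before each start were searched on both strands. TGACG, the core letters of the CRE bound by CREB and ATF factors, was found in 5 of the 8 promoters (Fos, Fosb, Junb, Atf3 and Nr4a1), against 17.8% of all 32851 promoters. TGACATCA, the AP-1-like element through which Jun is known to control its own gene, was found in the Jun promoter and in 2.93% of all promoters. GCGNGGGCG, the sequence recognized by EGR proteins, was found in Fosb, Fosl2 and Nr4a1 and in 4.70% of all promoters. TATAAA was found in Fos and in 12.4% of all promoters. None of the 8 windows held the full CRE, TGACGTCA (1.55% of all promoters), of which the core letters above are a part. None held the AP-1 site TGACTCA (4.46%) or the CArG box of serum response factor (1.47%). The 120 bases before the start are shown for the members that cover these arrangements, with each motif in capitals. They lie at chr4:95052223-95052342 for Jun (minus strand), chr12:85473770-85473889 for Fos (plus strand), chr7:19310046-19310165 for Fosb (minus strand), chr1:191183334-191183453 for Atf3 (minus strand) and chr15:101266726-101266845 for Nr4a1 (plus strand).
Jun: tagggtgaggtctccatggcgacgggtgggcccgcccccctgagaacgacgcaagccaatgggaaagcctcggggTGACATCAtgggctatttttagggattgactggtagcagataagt
Fos: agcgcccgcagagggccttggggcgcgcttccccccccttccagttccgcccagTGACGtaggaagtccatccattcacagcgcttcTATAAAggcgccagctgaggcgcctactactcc
Fosb: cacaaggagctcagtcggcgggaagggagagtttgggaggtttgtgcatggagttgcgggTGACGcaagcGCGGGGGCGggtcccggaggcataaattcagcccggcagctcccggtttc
Atf3: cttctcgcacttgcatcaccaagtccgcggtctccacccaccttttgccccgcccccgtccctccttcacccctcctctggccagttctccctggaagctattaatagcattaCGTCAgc
Nr4a1: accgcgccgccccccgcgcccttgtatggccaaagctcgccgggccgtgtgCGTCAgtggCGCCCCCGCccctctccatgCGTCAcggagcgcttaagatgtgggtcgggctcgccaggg
A match of letters is a description of these windows and shows no binding.

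Over all kept cells, 9 of the 10 members were lower in the cKO library by more than 1 on the log2 scale, and their 10 transcripts together made up 0.494% of WT UMIs and 0.108% of cKO UMIs. Among all 9166 genes that reached 5 CPM in either library, 5.17% were lower and 2.89% were higher by that amount, with a median log2 ratio of -0.07. The members' median was -2.45. Since the set was drawn up with this contrast known, these shares are given only for scale. The summed level was 4941 CPM in WT cells and 1083 CPM in cKO cells.

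Of the Jun subunits, Jun, the strongest activator of the family, stood at 1517 CPM (1505 to 1528) in WT cells and 148 CPM (145 to 150) in cKO cells, a log2 ratio of -3.36 (-3.39 to -3.33), the lowest of the members. It ranked 113th by level among all genes in WT and 956th in cKO cells. Jund, the family member known for its steady expression in resting cells, stood at 1325 CPM in WT cells and 281 CPM in cKO cells, a log2 ratio of -2.24 (-2.26 to -2.21). Junb, a subunit that restrains Jun activity and limits myeloid expansion, stood at 724 and 244 CPM, a log2 ratio of -1.57 (-1.59 to -1.54). The order of the family therefore differed between the libraries: Jun, Jund and Junb in WT, and Jund, Junb and Jun in cKO cells, with no overlap of neighbouring intervals. CPM from 3' counting are not divided by transcript length, since a UMI marks 1 transcript end.

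Of the Fos subunits, which must pair with a Jun protein to bind DNA, Fos stood at 475 CPM (468 to 481) in WT cells and 77.9 CPM (76.0 to 79.7) in cKO cells, a log2 ratio of -2.61 (-2.65 to -2.57). Fosb was about as different, at 54.0 and 8.84 CPM, a log2 ratio of -2.61 (-2.73 to -2.49). Fosl2, which encodes Fra-2, was the exception. It rested on 251 WT and 426 cKO UMIs, at 5.96 CPM (5.25 to 6.74) and 4.88 CPM (4.42 to 5.36), a log2 ratio of -0.29 (-0.52 to -0.06). Counted per cell, its order turned, from 0.031 UMIs in WT to 0.050 UMIs in cKO cells. The intervals of Fos and Fosb overlapped each other, and that of Fosl2 overlapped none of the other 9 members.

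The remaining members lay within the range of the AP-1 subunits. Atf3, a stress-induced factor that pairs with Jun proteins, was the least abundant of the 10 in cKO cells, at 9.85 CPM in WT (415 UMIs) and 1.43 CPM in cKO (125 UMIs), a log2 ratio of -2.78 (-3.08 to -2.49). Egr1, a zinc finger factor and serum response target, stood at 107 and 17.9 CPM, a log2 ratio of -2.59 (-2.67 to -2.50). Nr4a1, the orphan nuclear receptor Nur77, stood at 47.2 and 9.44 CPM, a log2 ratio of -2.32 (-2.44 to -2.20). Ier2, an early response gene whose product acts in the nucleus, was the least different of the 9, at 678 and 290 CPM, a log2 ratio of -1.23 (-1.25 to -1.20), and was the most abundant member in cKO cells.

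Because the cKO cells carried more UMIs in all, levels were also taken per cell. The 9 members other than Fosl2 were then lower in cKO cells by smaller amounts, and the median log2 ratio of all 10 was -1.46, with 7 lower by more than 1, against 1.63% of all genes on that scale (42.9% were higher by that amount). Jun stood at 7.84 UMIs per cell in WT and 1.52 in cKO cells, Jund at 6.85 and 2.90, and Fos at 2.45 and 0.802. Junb stood at 3.74 and 2.51 UMIs per cell. Ier2 stood at 3.50 and 2.98 UMIs per cell, a ratio of WT to cKO of 1.17. Among cells of like depth the difference was also smaller. At 2000 to 4000 UMIs (3646 WT and 209 cKO cells) the median log2 ratio was -1.22, with 5 members lower by more than 1, against 6.54% of all genes. One of the 5, Atf3, had no UMI in these cKO cells. At 4000 to 8000 UMIs (3093 and 2176 cells) the median was -1.60 with 7 members (5.97% of all genes), and at 8000 to 16000 UMIs (1103 and 5315 cells) it was -1.34 with 6 members (5.75%). The shallowest cKO cells were of another mix. Clusters 12, 13, 15 and 17 held 37.8% of the 209, against 1.26% of the WT cells of that depth. These clusters carry markers of mature or B-lineage cells and are described below. Without those clusters the medians were -2.02 (9 members), -1.69 (7 members) and -1.34 (6 members).

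Within a library, the mean number of member UMIs per cell varied less across the 3 depth ranges than the depth itself. In WT cells the 10 members gave 24.9, 26.2 and 27.6 UMIs per cell in the 3 depth ranges, and in cKO cells 11.6, 10.3 and 11.2. Without the clusters of mature or B-lineage markers the cKO values were 7.5, 10.1 and 11.2 UMIs per cell. Single members did not all follow the sum. With rising depth Ier2 went from 3.13 to 4.63 UMIs per cell in WT and from 1.88 to 3.18 in cKO cells. Jun went from 2.28 to 1.42 and Fos from 1.44 to 0.725 in cKO cells. These cKO values of single members include the clusters of mature or B-lineage markers. Nr4a1 went from 0.282 to 0.163 UMIs per WT cell. The summed CPM went down as the total went up, from 8286 to 2593 CPM in WT cells and from 3596 to 990 CPM in cKO cells. The mitochondrial share moved with depth as well. In cells with 0 to 2% mitochondrial UMIs the median log2 ratio was -1.66, with 7 members lower by more than 1 (5.76% of all genes), against -2.25 with 9 at 2 to 3% (4.26%) and -2.24 with 10 at 3 to 5% (5.77%). The part of depth and of the mitochondrial share in the difference was not tested.

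The share of cells with a UMI was compared after thinning every cell to 2000 UMIs, and 7950 WT and 8374 cKO cells were deep enough for it. Jun was seen in 79.3% (78.4 to 80.2) of WT and 24.3% (23.4 to 25.3) of cKO cells. Jund was seen in 82.5 and 43.1%, Junb in 63.8 and 36.3%, and Ier2 in 68.0 and 44.3%. Fos, at 49.1 and 14.4%, and Egr1, at 21.6 and 3.56%, differed more. The rare members were Fosb (11.9 and 1.99%), Nr4a1 (10.4 and 2.36%) and Atf3 (2.18 and 0.322%). For Fosl2 the shares of 1.26% (1.02 to 1.53) and 0.896% (0.705 to 1.12) overlapped in their intervals. Without thinning, 2 members had the opposite order: Ier2, in 85.9% of WT and 88.6% of cKO cells, and Fosl2, in 2.92 and 4.84%. Jund (94.0 and 89.9%) and Junb (82.3 and 79.7%) were then close. Since no cell type of the marrow is known to lack these genes, no share could be read as background.

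**Figure D1:**
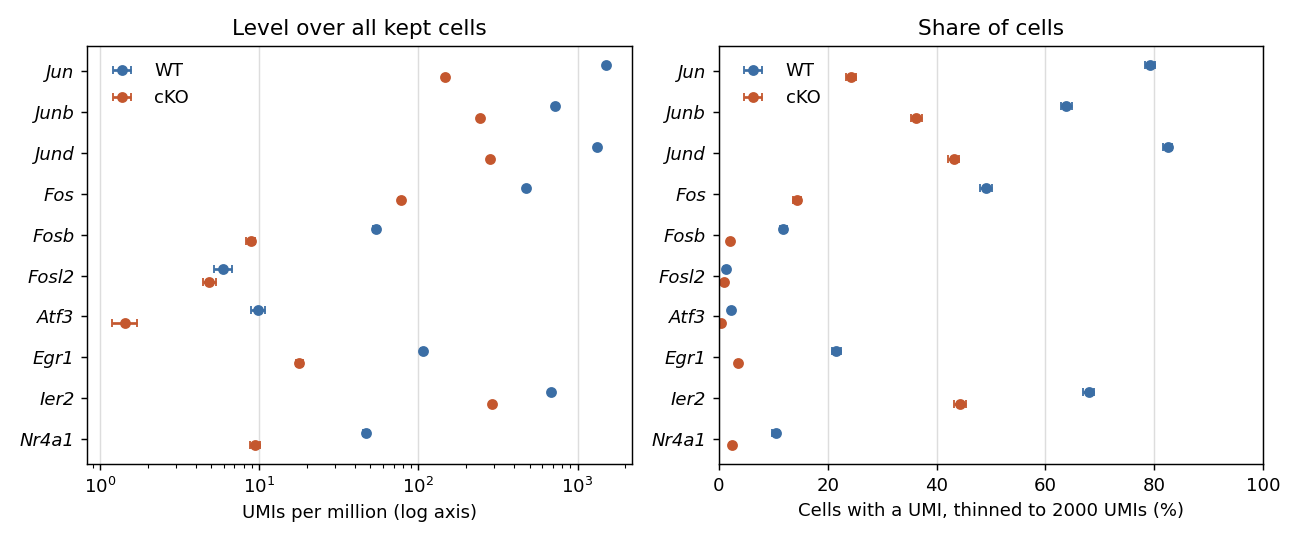
Level of each member in CPM over all kept cells (left, log axis) and share of cells with at least 1 UMI after thinning to 2000 UMIs per cell (right, percent), for the WT and the cKO library; bars are 95% counting intervals. 9 members lie apart in both panels, Jun the most (1517 against 148 CPM), and Fosl2 lies nearly together (5.96 against 4.88 CPM).

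Cells with several UMIs of a member were fewer in the cKO library. Of WT thinned cells, 50.2% held 3 or more Jun UMIs and 31.2% held 5 or more, against 2.28 and 0.430% of cKO cells. For Jund, 47.9% of WT and 3.81% of cKO cells held 3 or more UMIs, and for Fos 16.4 and 1.24%. The Fano factor, the variance over the mean, which is 1 for random sampling of equal cells, was 4.57 for Jun in WT and 2.29 in cKO thinned cells. For Jund it was 3.40 and 1.26, for Junb 3.04 and 1.90, for Fos 2.72 and 1.89, and for Ier2 2.04 and 1.26. For Fosl2 it was close to 1 in both libraries, at 1.01 and 0.991. Both measures go down with the mean, which for Jun was 3.78 UMIs in WT and 0.362 in cKO thinned cells, so they do not show a narrower spread. The variance beyond random sampling over the squared mean had another order for several members: it was 0.943 in WT and 3.56 in cKO cells for Jun, 1.47 and 4.44 for Fos, and 1.12 and 1.63 for Junb, but 0.726 and 0.420 for Jund and 0.645 and 0.416 for Ier2. Unthinned, the 10% of cKO cells richest in Fos held 51.1% of its UMIs, and the richest 10% of WT cells held 39.3%.

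Counted together, WT thinned cells held UMIs of 3.90 ± 1.79 members (SD over 7950 cells) and cKO cells of 1.72 ± 1.24 (SD over 8374 cells). No member was seen in 3.53% (3.14 to 3.96) of WT and 16.5% (15.7 to 17.3) of cKO cells. 5 or more members were seen in 41.2% of WT and 2.17% of cKO cells. The median thinned WT cell held 10 member UMIs, with 5% of cells at 1 or fewer and 5% at 32 or more. The median cKO cell held 2, with 5% of cells at 7 or more.

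**Figure D2:**
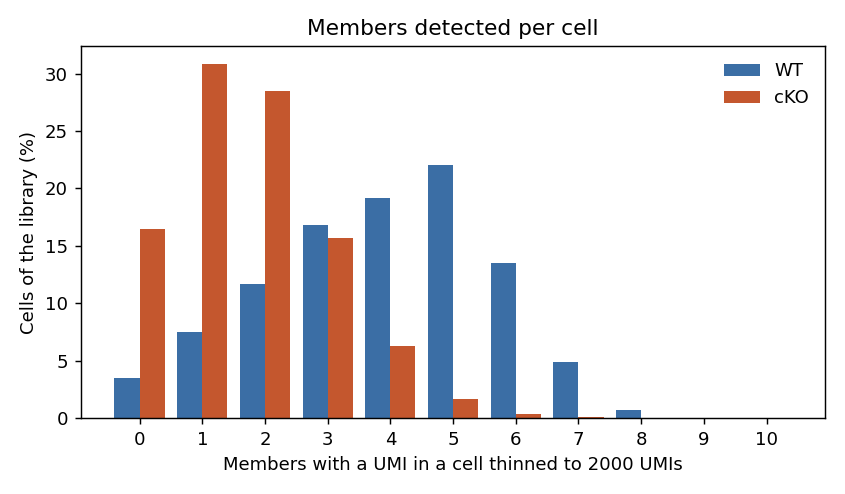
Percent of cells of each library (bars) by the number of members, out of 10, with at least 1 UMI after thinning to 2000 UMIs per cell. WT cells centre on 4 members and cKO cells on 2, and 16.5% of cKO cells hold none.

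Members varied together from cell to cell, more so in the WT library. Across WT thinned cells the Pearson correlation of log-normalized levels had a median of 0.15 over the 45 pairs, and was highest for Jun and Jund (0.52), Jun and Ier2 (0.41) and Junb and Fos (0.40). Across cKO cells the median was 0.03 and the highest value was that of Jun and Fos (0.18). These points share a library and a thinning depth, and at the lower cKO counts a weak correlation says little. The summed members also ran with the total UMIs of the cell before thinning (-0.40 in WT and -0.29 in cKO cells) and with its mitochondrial share (0.18 and 0.11). With both regressed out of each member, the median over pairs was 0.11 in WT and 0.03 in cKO cells, and that of Jun and Jund in WT cells was 0.46. The genes outside the set that ran most closely with the summed members, by the mean correlation over both libraries among 4644 genes at 20 CPM or more, were Dusp1 (0.39 in WT and 0.15 in cKO), Zfp36 (0.36 and 0.13), Rgs1 (0.39 and 0.08), H3f3b (0.42 and -0.00) and mt-Co1 (0.26 and 0.11). Dusp1 encodes a phosphatase that switches off MAP kinases, Zfp36 a protein that destroys mRNAs with AU-rich elements, and Rgs1 a regulator of G protein signalling. Dusp1 stood at 305 CPM in WT cells and 51.9 CPM in cKO cells, a log2 ratio of -2.55.

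To follow the members across lineages, cells were clustered without them and without the other listed early response, AP-1 and heat shock genes, and 18 clusters were found. Clusters 0 to 11 held most cells and at least 50 in each library. Cluster 8 was HSC-like by its markers (Mllt3, Pdzk1ip1, Procr), cluster 7 megakaryocyte-like (Pf4, Gp1bb, Itga2b) and cluster 2 GMP-like (Elane, Mpo, Ctsg), the granulocyte-monocyte progenitors. Cluster 12 was monocyte or dendritic cell-like, with class II genes beside the lymphoid genes Ccl5 and Xcl1, and cluster 13 had no single identity. In each of clusters 0 to 11 the members' median log2 ratio was below -1, from -3.20 in cluster 10 to -1.31 in cluster 2, while the median of all genes in clusters 0 to 12 lay between -0.18 and -0.03. Leaving the members out of the features did not part the clusters from them: Fosb and Egr1 were among the 10 leading genes of cluster 10, and Fos and Nr4a1 among those of cluster 4.

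Jun, Jund, Fos, Fosb and Egr1 were lower in cKO cells by more than 1 in all of clusters 0 to 11. Jun ranged from -4.32 to -2.51 over these 12 clusters, Jund from -2.89 to -1.58, Fos from -3.59 to -1.44, Fosb from -3.71 to -1.40 and Egr1 from -3.81 to -1.23. Junb (-2.29 to -0.53), Ier2 (-1.88 to -0.59) and Nr4a1 (-3.20 to -0.93) passed that size in 11 of the 12 clusters, cluster 2 being the exception. Atf3 was lower by more than 1 in the 11 clusters where both libraries had over 3 of its UMIs. Fosl2 passed it in none, with ratios from -0.96 to 0.98.

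HSC-like cells had some of the highest WT levels in CPM. Jun stood at 2717 CPM in the 548 WT and 257 CPM in the 508 cKO HSC-like cells, a log2 ratio of -3.40 (-3.51 to -3.30). Jund stood at 2421 and 479 CPM, Fos at 717 and 165 CPM and Egr1 at 221 and 34.9 CPM. 9 members were lower by more than 1, where 10.3% of all genes in that cluster were. Fosl2 rested on few UMIs there, and its ratio of 0.98 (-0.47 to 3.13) spanned 0. After thinning, Jun was seen in 88.9% of WT and 36.6% of cKO HSC-like cells. In cKO cells, the HSC-like cluster had the highest summed CPM of clusters 0 to 11, at 1742.

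Megakaryocyte-like cells showed the lowest ratio of Jun. It stood at 1854 CPM in 672 WT cells and 92.4 CPM in 416 cKO cells, a log2 ratio of -4.32 (-4.47 to -4.19), and Fos at 402 and 33.4 CPM, a ratio of -3.59 (-3.83 to -3.36). Egr1 was less different there, with a ratio of -2.17 (-2.42 to -1.93), and its 36.5 CPM in cKO cells was the highest of clusters 0 to 12. 9 members were lower by more than 1, against 9.24% of all genes in the cluster.

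GMP-like cells differed least among clusters 0 to 11. 6 members were lower by more than 1, against 5.79% of all genes in the cluster, and all 10 were lower beyond counting error. Jun stood at 727 CPM in 934 WT cells and 127 CPM in 833 cKO cells, a log2 ratio of -2.51 (-2.59 to -2.43). Junb stood at 339 and 234 CPM (-0.53, -0.61 to -0.46) and Ier2 at 427 and 284 CPM (-0.59, -0.66 to -0.52). The GMP-like cells were also the deepest, with means of 10260 UMIs per cell in WT and 14322 in cKO, and per cell Junb (3.47 and 3.35 UMIs) and Ier2 (4.38 and 4.06 UMIs) were close between the libraries, while Jun was not (7.46 and 1.82 UMIs). GMP markers summed to 6874 CPM over all WT cells and 853 CPM over all cKO cells.

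Across clusters, too, the summed members spanned a narrower range of UMIs per cell than the totals did. Over clusters 0 to 11 the mean total ranged from 2865 to 10260 UMIs per cell in WT, a 3.58-fold range, while the summed members ranged only from 22.0 to 32.2 UMIs per cell, a 1.46-fold range. In cKO cells the total ranged from 6771 to 14322 UMIs per cell and the members from 9.94 to 13.8, a 1.39-fold range. The 2 libraries did not overlap on this scale. In CPM the same clusters spanned 4.16-fold in WT (2405 to 9997 CPM) and 2.14-fold in cKO cells (815 to 1742 CPM). The order of lineages by CPM, with HSC-like cells high and GMP-like cells low, therefore ran with the total UMIs of the cells. Single members varied more: per cell, Nr4a1 spanned 3.79-fold, Egr1 2.81-fold and Fosb 2.73-fold across the WT clusters, and Ier2 1.40-fold.

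**Figure D3:**
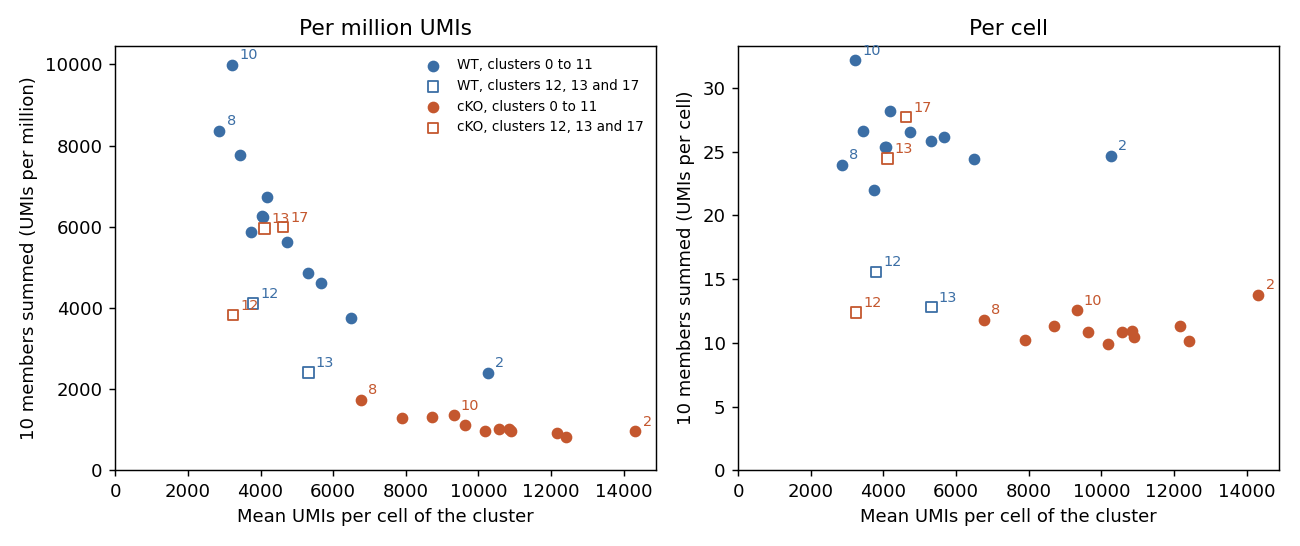
The 10 members summed, in CPM (left) and per cell (right), against the mean UMIs per cell of each cluster (x axis), with 1 point per cluster and library; filled points are clusters 0 to 11 and open squares are clusters 12, 13 and 17. In CPM the points go down with depth, from 9997 to 2405 CPM in WT, whereas per cell WT clusters 0 to 11 stay at 22.0 to 32.2 UMIs and cKO clusters at 9.94 to 13.8.

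The clusters of mature or B-lineage markers were not alike. In the B cell-like cluster 15, with 12 WT and 81 cKO cells, Jun stood at 1067 CPM in WT cells and 208 CPM in cKO cells (-2.36, -2.80 to -1.90). Jund stood at 1083 and 383 CPM (-1.51, -1.90 to -1.08), Fos at 207 and 74.2 CPM (-1.52, -2.41 to -0.46), and Junb at 207 and 240 CPM (0.17). Of the 5 members with over 3 UMIs in each library there, 3 were lower and none was higher by more than 1, against 18% lower and 6.49% higher among all genes at 50 CPM or more.

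In the monocyte or dendritic cell-like cluster 12, with 53 WT and 176 cKO cells, the members summed to 4109 and 3823 CPM, and of the 8 members with over 3 UMIs in each library 1 was lower by more than 1 (Egr1, -1.50, -2.85 to -0.16), against 15.6% of all genes there. Jun stood at 847 and 497 CPM (-0.77, -1.05 to -0.49), and Junb was higher in cKO cells, at 767 and 1453 CPM (0.92, 0.67 to 1.18). The depth of this cluster had means of 3789 UMIs per cell in WT and 3237 in cKO, and medians of 3083 and 2075.5. Its T or NK cell markers summed to 2261 CPM in WT cells and 3982 CPM in cKO cells, and its monocyte or dendritic cell markers to 27889 and 13348 CPM, so its makeup differed between the libraries. The part of that makeup in the members' levels was not tested.

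In cluster 13, with 90 WT and 33 cKO cells, the order was opposite. Jun stood at 595 CPM in WT cells and 1940 CPM in cKO cells, a log2 ratio of 1.71 (1.46 to 1.95), Junb at 340 and 1335 CPM (1.97, 1.66 to 2.29) and Ier2 at 526 and 1188 CPM (1.18, 0.88 to 1.47). Of the 7 members with over 3 UMIs in each library none was lower and 5 were higher by more than 1, against 7.32% lower and 46% higher among all genes at 50 CPM or more in the cluster. Its cells were not of 1 kind. In WT the 10 neutrophil markers summed to 386279 CPM and the 9 basophil or mast cell markers to 5279 CPM, whereas in cKO the same lists summed to 7.38 and 32706 CPM. Divided by which list had more UMIs in a cell, 75 WT cells were on the neutrophil side with 1706 CPM of members, and no cKO cell was. On the basophil or mast cell side, 5 WT cells held 8544 CPM and 22 cKO cells held 9179 CPM of members. Jun stood at 2798 CPM (2304 to 3367) and 3088 CPM (2720 to 3491) in them. Cells with equal UMIs of both lists went the other way, with 5280 CPM of members in 10 WT cells and 925 CPM in 11 cKO cells.

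Plasma cell-like cluster 17 held 32 cKO cells and no WT cell. Its members summed to 5993 CPM, with Fos at 1473 CPM and Jun at 1209 CPM, and to 27.7 UMIs per cell. That is the range of WT clusters 0 to 11 and above each of the cKO clusters 0 to 11. High levels of the members were thus present in the cKO library, in cells outside clusters 0 to 11. Over all cells except those of clusters 12, 13, 15 and 17, the median log2 ratio of the members was -2.49.

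**Figure D4:**
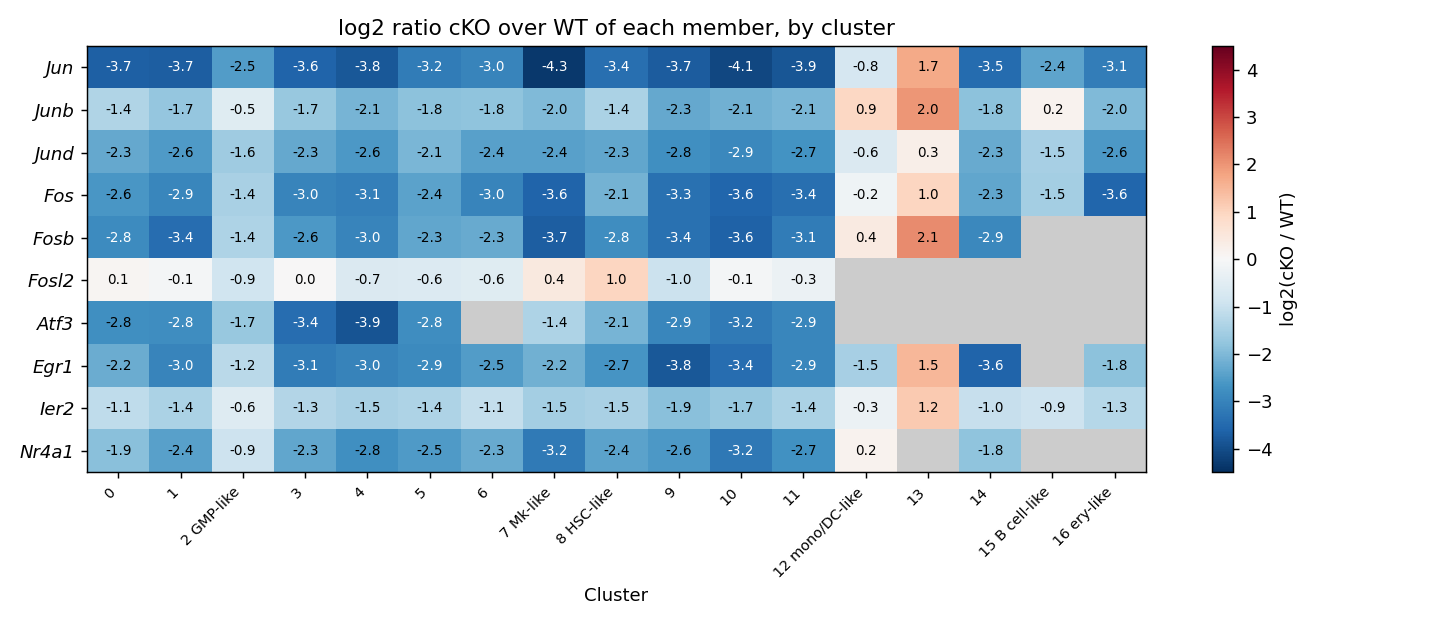
log2 ratio of cKO over WT (colour and number) for each member (rows) in each cluster with cells in both libraries (columns); grey marks 3 or fewer UMIs in a library. The rows of 9 members are blue from cluster 0 to 11, except for grey at Atf3 in cluster 6, the Fosl2 row is pale, and cluster 13 is red for Jun (1.7), Junb (2.0) and Fosb (2.1).

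By cell cycle phase, called on thinned cells, the members were lower in cKO cells in each phase. The median log2 ratio was -2.85 in G1 (4148 WT and 4511 cKO cells), -2.11 in S (1635 and 1582 cells) and -2.03 in G2/M (2167 and 2281 cells). 9 members were lower by more than 1 in each, against 7.12, 4.71 and 5.52% of all genes. Jun stood at 2234 CPM in WT cells and 181 CPM in cKO cells in G1, and at 945 and 107 CPM in G2/M. Per cell the phases differed little, with 27.2 member UMIs in G1 and 22.9 in G2/M in WT, and 11.6 and 10.0 in cKO cells.

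Other parts of the pathway were set beside the members, over all kept cells. For scale, 5.17% of all genes at 5 CPM or more were lower and 2.89% were higher by more than 1. Among 40 other early response genes, 32 reached 5 CPM, of which 12 were lower and 1 was higher by more than 1, with a median log2 ratio of -0.72. The lowest were Dusp1 (-2.55) and Btg2 (-2.38), an antiproliferative gene, and the highest were Nab2 (1.74), a corepressor of EGR factors, and Cebpb (0.88), a myeloid factor that stood at 134 CPM in WT cells and 245 CPM in cKO cells. Btg2 stood at 120 and 23.1 CPM. Myc, a growth regulator named here after its values were seen, stood at 159 and 128 CPM (-0.31).

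AP-1 partners and related bZIP factors outside the set differed less. Of 15 listed genes 10 reached 5 CPM, with a median of -0.24, 1 lower and 1 higher by more than 1. Mafk, a small Maf protein, stood at 16.5 CPM in WT cells and 7.60 CPM in cKO cells (-1.12), followed by Atf7 (-0.51). Jdp2, a repressor that pairs with Jun proteins, stood at 20.5 and 55.7 CPM (1.44, 1.33 to 1.55), and Batf, which pairs with Jun proteins in lymphoid cells, at 28.8 and 42.0 CPM (0.55). The kinases and serum response factors that drive the members lay near 0: of 21 measured, none was lower or higher by more than 1, and their median was -0.13. The lowest were Map3k1 (-0.71), a kinase upstream of JNK, and Elk3 (-0.63), a partner of serum response factor, and the highest were Map2k1 (0.51) and Map2k2 (0.48), the MEK kinases. These values concern mRNA and do not show kinase activity.

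Genes of the heat shock response, which is also known to be raised by handling of cells, were mixed. Of 13 listed genes 9 reached 5 CPM. None of the 9 was lower or higher by more than 1, 7 of the 9 were above 0 and their median was 0.41. The chaperone genes Hspe1 (0.74) and Dnaja1 (0.55) were highest, and the heat-inducible Dnajb1 (140 and 76.3 CPM, -0.88) and Dnajb4 (-0.61) were lowest. Summed, the 9 stood at 4880 CPM in WT cells and 6169 CPM in cKO cells, most of it from abundant chaperones such as Hspa8 and Hsp90ab1. Below 5 CPM, the heat-inducible Hspa1a (135 WT and 78 cKO UMIs, -1.84, -2.27 to -1.43) and Hspa1b (96 and 96 UMIs, -1.05, -1.48 to -0.63) were lower by more than 1, and Hspb1 (-0.07) and Bag3 (0.17) were not. The 8 genes of the ATF4 branch, whose bZIP factors can pair with AP-1 proteins, were all higher by more than 1, with a median of 3.83. Chac1 (6.73) and Trib3 (6.12) were highest, with Trib3 at 2.28 CPM in WT cells and 159 CPM in cKO cells, and Atf4 (66.8 and 215 CPM, 1.69) and Cebpg (1.09) were lowest. Atf3, itself an ATF4 target in stressed cells, went with the AP-1 subunits rather than with this list, at 9.85 CPM in WT cells and 1.43 CPM in cKO cells.

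**Figure D5:**
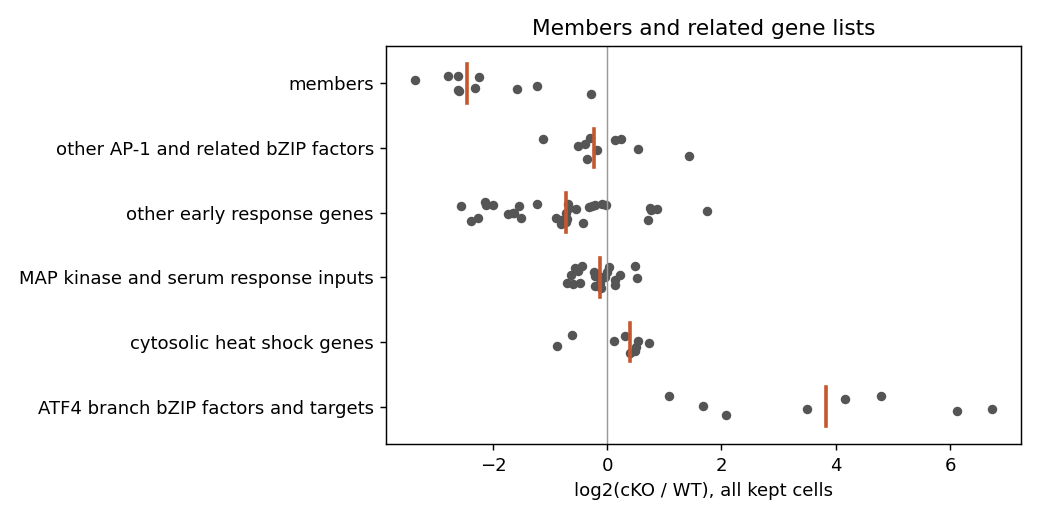
log2 ratio of cKO over WT over all kept cells (x axis), with 1 point per gene at 5 CPM or more, for the members and 5 lists of related genes (rows; vertical position within a row has no meaning); orange lines are medians. The medians are -2.45 for the members, -0.72 for the other early response genes, 0.41 for the heat shock genes and 3.83 for the ATF4 branch.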

How the data were processed

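UMI counts of each gene in each barcode were used as deposited; they come from the authors' run of Cell Ranger 6.0.0 (per the labels) on GRCm38. The labels name the v2 and the methods the v3 reagent kit. The limits of the study on genes, mitochondrial and haemoglobin UMIs were applied, and 617 WT and 673 cKO cells were removed as likely doublets, scored against simulated doublets. Clustering used R 4.3.3 with the packages Seurat 5.3.0 and sctransform 0.4.2 (3000 features, 30 dimensions, resolution 0.8, anchor integration), with members and listed early response, AP-1 and heat shock genes left out of the features. Clusters were named from lists of markers of 13 cell types and carry "-like". Levels are CPM of UMIs summed over cells with exact Poisson intervals, log2 ratios used 0.5 prior counts and conditional binomial intervals, and shares used Clopper-Pearson intervals (scipy 1.17.1). Shares and phases used cells thinned to 2000 UMIs. The calculation of ratios and intervals was checked on simulated counts with random sampling only, so spread between cells or libraries was not covered. Promoters came from RefSeq (8 of 10 members matched) and transcripts from GENCODE M21.

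No test across samples could be run, since each group is 1 library. The members and lists were chosen with earlier results of these data known. All members are named, as are the 2 highest and 2 lowest genes of each list and the 5 genes most correlated with the members. Alternatives covered scaling (including the TMM factor of edgeR 4.0.16), filters, doublets, thinning depth, cell mix, clustering and minimum level. UMIs per cell, leaving out clusters of mature or B-lineage markers, and the lowest and highest depth ranges were added after seeing the data. So were correlations with depth regressed out and the division of cluster 13.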

Additional observations from a re-analysis of the deposited data

Results flagged for a closer look

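In cluster 13, 46% of all genes at 50 CPM or more were higher in cKO cells by more than 1. So were 5 members, also beyond counting error: Jun (1.71), Junb (1.97), Fosb (2.12), Egr1 (1.51) and Ier2 (1.18). Among the clusters with at least 50 cells in one library and 10 in the other, they were lower by more than 1 and beyond counting error in 12 to 14, depending on the gene. Junb (0.92) and Fosb (0.41) were above 0 in cluster 12 as well, and Junb (0.17) in cluster 15. The difference between clusters was not tested, since each has 1 library per genotype. Most of the 90 WT cells there carried neutrophil markers and most of the 33 cKO cells basophil or mast cell markers, so the ratios set different cells side by side.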

How the results depend on the processing

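No paired analysis was possible because each genotype has 1 library. The median log2 ratio of the members, -2.45, kept its sign under each alternative run. Under median-of-ratios size factors it was -2.35, -2.33 with an equal mix of clusters, -2.85 in cells called G1, -1.60 in cells with 4000 to 8000 UMIs, -1.22 at 2000 to 4000, -1.34 at 8000 to 16000, -1.46 in UMIs per cell and -2.59 for the 7 members at 50 CPM or more. In those 3 depth ranges, without clusters of mature or B-lineage markers, it was -2.02 (2000 to 4000), -1.69 (4000 to 8000) and -1.34 (8000 to 16000). The count of members lower by more than 1 was 9 except for 5 at 2000 to 4000 UMIs (9 without those clusters), 7 at 4000 to 8000, 6 at 8000 to 16000, 7 in UMIs per cell and 7 of 7 at 50 CPM. Scaling by the TMM factor, by size factors or without mitochondrial and ribosomal protein genes moved the ratios of all genes by 0.098, 0.101 and 0.083. Of single members, Fosl2 turned, to 0.71 in UMIs per cell, and the other 9 stayed negative under all 13 alternatives. The difference in members per thinned cell, -2.18, was -1.85 at 1000 UMIs, -2.04 at 3000 UMIs and -2.52 in G1 cells. Cluster medians were compared among clusters with at least 50 cells in each library. That leaves out cluster 13, with 33 cKO cells and a median of 1.07. The highest cluster median, -0.22, was -1.33 with members and listed genes kept among the features and 0.81 at resolution 0.4. At resolution 1.2 it was -1.28, without integration -2.10, and for cells assigned by marker score -1.92. The lowest, -3.20, was -2.81, -3.04, -3.24, -3.02 and -2.87 in the same order. The cause was not tested. The count of 12 other early response genes was 7 at 20 CPM. With no minimum level 2 heat shock genes were lower by more than 1, against 0 at 5 CPM. Depth limits Fosl2 and Atf3, which rest on few UMIs per cluster.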
